A study of Mus musculus with 12 samples.

Results

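The genes described here are the nuclear-encoded subunits of respiratory chain complexes III and IV and of ATP synthase (complex V), with cytochrome c. They were taken from the table of read counts by symbol: rows that begin with Uqcr or Atp5, rows that begin with Cox followed by a number from 4 to 8, and Cyc1 and Cycs. Of 54 such rows, 7 carried a pseudogene symbol and were left out, and 3 did not reach 10 counts in at least 6 of the 12 libraries. These 3 were Cox7b2 with at most 2 counts in a library, Cox8c with 0 counts in every library, and a second identifier of Atp5o, also with 0. The remaining 44 genes, of 54949 features in the table and 15114 tested, comprise 9 of complex III, 1 for cytochrome c, 17 of complex IV and 17 of complex V. All 44 reached 10 counts in all 12 libraries, and the rule used no difference between groups.

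Ventricles of male wild-type C57BL/6N mice, with the atria removed, were profiled by poly-A RNA-seq in 12 libraries, to compare mice with HFpEF, the form of heart failure in which the ejection fraction is preserved, with controls. The model mice received a high-fat diet and L-NAME, which inhibits nitric oxide synthesis, at 0.5 g/L in their water, from 8 weeks of age for 5 weeks, and the controls received a normal diet and water. The labels contradict each other in all 12 samples. Libraries named con-1 to con-6 carry titles and treatments of the HFpEF model, and libraries named HF-1 to HF-6 carry those of the controls. Here con-named and HF-named stand for the groups as the library names give them, a fold change is HF-named over con-named, and which group was treated is not decided. The labels list 6 samples in each group, and the design text gives 5. Whether the libraries of a group come from different mice is not said, and p-values cover only the spread among these libraries. In bulk tissue, fewer cells of a type and less RNA per cell cannot be told apart.

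Complex III passes electrons from ubiquinol to cytochrome c, complex IV passes them from cytochrome c to oxygen, and both pump protons across the inner mitochondrial membrane. ATP synthase lets the protons flow back through its membrane rotor and uses that flow to make ATP in its matrix head. Each complex combines subunits made from nuclear genes with a few made from mitochondrial DNA. Cardiac muscle, which contracts without pause, is among the tissues richest in all of them, and several complex IV subunits have separate genes for a heart and skeletal muscle form and for a common form.

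The promoters of the 5 genes that passed the test are shown first, since these are the genes whose difference passed. The sequences are the 250 bases before the RefSeq start on GRCm38.p6 (mm10), on the strand of each gene, all of which is the minus strand: Atp5o at chr16:91931631-91931880, Atp5h at chr11:115419920-115420169, Atp5g1 at chr11:96075632-96075881, Cox6a1 at chr5:115348959-115349208 and Cox6b2 at chr7:4753095-4753344. GENCODE M21 places the start of Atp5o, Atp5h, Atp5g1 and Cox6a1 inside these windows. Capitals mark matches to motifs of factors known to act on respiratory chain promoters.
Atp5o: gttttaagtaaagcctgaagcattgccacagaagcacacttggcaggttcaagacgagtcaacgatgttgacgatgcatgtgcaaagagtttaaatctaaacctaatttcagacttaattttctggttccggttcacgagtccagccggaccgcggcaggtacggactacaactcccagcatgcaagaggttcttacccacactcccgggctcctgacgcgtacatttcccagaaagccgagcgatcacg
Atp5h: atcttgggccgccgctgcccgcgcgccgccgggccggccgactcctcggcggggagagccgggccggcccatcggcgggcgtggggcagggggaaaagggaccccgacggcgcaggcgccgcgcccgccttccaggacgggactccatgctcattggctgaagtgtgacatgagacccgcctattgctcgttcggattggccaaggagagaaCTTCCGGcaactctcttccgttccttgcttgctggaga
Atp5g1: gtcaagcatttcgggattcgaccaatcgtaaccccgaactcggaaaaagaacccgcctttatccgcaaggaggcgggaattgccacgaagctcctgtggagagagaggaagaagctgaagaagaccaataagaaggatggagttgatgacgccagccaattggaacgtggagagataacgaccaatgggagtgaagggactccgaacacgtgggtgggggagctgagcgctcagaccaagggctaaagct
Cox6a1: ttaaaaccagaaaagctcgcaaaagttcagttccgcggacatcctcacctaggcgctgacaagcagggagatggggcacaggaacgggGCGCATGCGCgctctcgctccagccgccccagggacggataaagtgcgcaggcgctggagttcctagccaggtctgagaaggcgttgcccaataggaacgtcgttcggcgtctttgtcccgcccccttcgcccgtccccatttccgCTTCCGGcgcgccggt
Cox6b2: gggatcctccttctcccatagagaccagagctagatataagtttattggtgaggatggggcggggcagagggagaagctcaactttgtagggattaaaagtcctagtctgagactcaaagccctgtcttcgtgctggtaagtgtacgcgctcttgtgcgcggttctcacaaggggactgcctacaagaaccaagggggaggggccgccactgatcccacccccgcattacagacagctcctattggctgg

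The motifs searched on both strands were GCGCATGCG for NRF1, CCGGAAG for ETS factors such as GABPA, TCAAGGTCA for ERR and AAGATGGC for YY1. The NRF1 motif reads almost the same on both strands, so its matches on the 2 strands overlap in the sequence of Cox6a1. Before its start Cox6a1 held this NRF1 match and 1 ETS match, Atp5h held 1 ETS match, and Atp5o, Atp5g1 and Cox6b2 held none of the 4 motifs. Among all the genes described, 33 matched a RefSeq promoter, with 36 windows of 300 bases that include 50 bases after the start. NRF1 letters were found in 19.4% of these windows against 1.75% of all 32851 promoter windows. For the ETS motif the shares were 27.8% (10 of the 36 windows) and 8.86%. For ERR they were 2.78% (1 window) and 0.423%, and for YY1 8.33% (3 windows) and 2.75%. NRF1 matches fell in 7 genes, Uqcrc1, Uqcr11, Cycs, Cox6a1, Atp5g2, Atp5k and Atp5l, of which only Cox6a1 passed the test. A match is a description of the letters and not of binding.

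Libraries held 14443186 to 22048689 counts, and levels are given as CPM, counts scaled to the library size after TMM scaling, and as FPKM, the authors' value per length, where genes are compared with each other. Transcripts of mitochondrial DNA took 20.95 to 24.01% of the counts in con-named and 23.93 to 27.19% in HF-named libraries. Library con-2 stood apart from the other con-named libraries for these genes. It was the lowest of all 12 libraries for 13 of the 44, and its median deviation from the gene means was -0.11 on the log2 scale, against 0.01 to 0.16 in the other con-named libraries. It also had the lowest summed cardiomyocyte markers (63370 CPM) and the highest summed endothelial markers (1536 CPM) of the 12. The part of these markers in the results was not tested, and counts are given with and without con-2.

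Of the 44 genes, 5 were lower in HF-named libraries and 0 were higher, by the quasi-likelihood test of edgeR, Benjamini-Hochberg adjusted over all 15114 genes tested. The 5 were Atp5o, Atp5h and Atp5g1 of ATP synthase and Cox6a1 and Cox6b2 of complex IV. They make 11.4% of the 44, where 5.05% of all genes tested were lower and 8.28% were higher. Before adjustment, 19 of the 44 (43.2%) had p under 0.05, all of them lower, as had 28.6% of all genes tested in either direction. Differences were small: the median over the 44 was -0.11 on the log2 scale, against -0.01 over all genes tested, and 36 of the 44 were below 0, as were 52.7% of all genes. Without con-2, 16 of the 44 were lower and 0 higher, where 5.26% of all genes were lower, and the median was -0.15. Con-2 was set apart by its low levels of these same genes, so leaving it out widens the difference by selection. All counts and calls given without con-2 carry that selection. Without HF-1, the lowest library for 14 of the 44, 4 were lower, where 3.85% of all genes were lower. With library totals in place of TMM, which moved the median of all genes to -0.13, all 44 fold changes were below 0 and 33 were called, where 17.1% of all genes tested were lower in that setting. The gap between the 44 and all genes was -0.10 under both scalings.

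**Figure D1:**
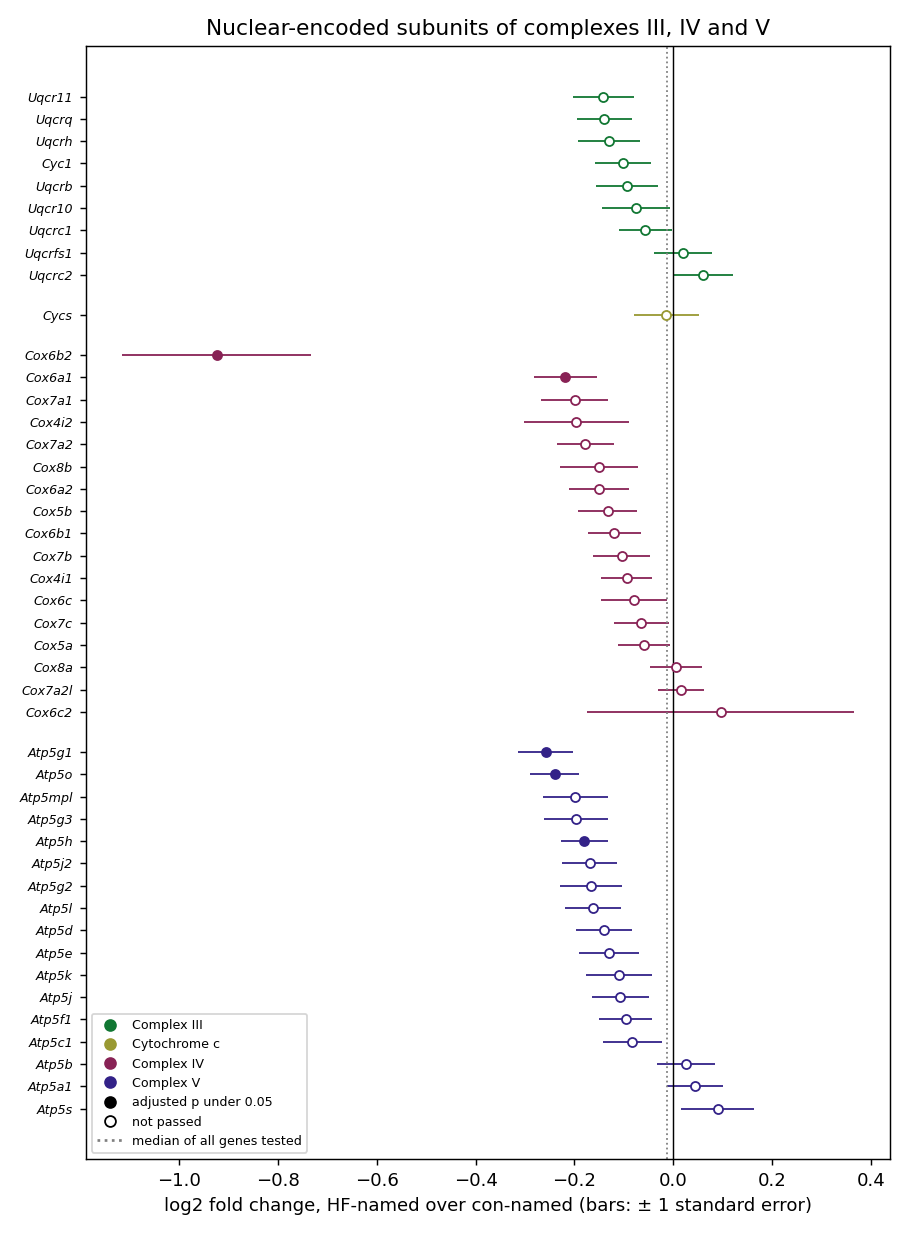
Log2 fold change of each of the 44 genes, HF-named over con-named, with bars of 1 standard error, grouped by complex. Filled points mark the 5 genes with adjusted p under 0.05, which all lie left of 0, and the dotted line is the median of all genes tested at -0.01.

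In ATP synthase the peripheral stalk, which holds the catalytic head still against the turning rotor, gave 2 of its 4 genes. Atp5o encodes the oligomycin sensitivity conferring protein that joins the stalk to the head. Its level was 308, 346 and 353 CPM (lowest, median and highest) in con-named libraries and 273, 281 and 306 CPM in HF-named libraries. Every HF-named library lay below every con-named library, with con-2 the lowest of its group. The log2 fold change was -0.24 (SE 0.05, n = 6 per group, edgeR adjusted p = 0.00655), a level 15.3% lower. Atp5h encodes subunit d of the stalk and ranged over 581, 627 and 666 CPM in con-named and 541, 554 and 579 CPM in HF-named libraries. These groups also did not overlap, though con-2 and HF-5 nearly met. Its log2 fold change was -0.18 (SE 0.05, edgeR adjusted p = 0.0198). Atp5o and Atp5h were the 2 genes of the 44 with such separation below, which 1.95% of all genes tested showed. The other stalk genes, Atp5f1 for subunit b (-0.10) and Atp5j for coupling factor 6 (-0.11), did not pass.

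The c-ring is the membrane rotor, and its identical subunits come from 3 genes that encode the same mature peptide with different import sequences. Atp5g1 measured 669, 776 and 832 CPM in con-named and 615, 641 and 669 CPM in HF-named libraries. The groups touched at con-2 and HF-3, and 5 of the 6 HF-named libraries lay below all con-named ones. HF-named over con-named, this was -0.26 on the log2 scale (SE 0.05, edgeR adjusted p = 0.00688). Atp5g3 measured 1035, 1190 and 1301 CPM against 934, 1054 and 1115 CPM, a log2 fold change of -0.20 that missed the threshold (edgeR adjusted p = 0.0536). Atp5g2, the least abundant per length of the 3 (80.6 FPKM in con-named libraries, against 162 for Atp5g1 and 566 for Atp5g3), measured 120, 128 and 144 CPM against 106, 114 and 134 CPM. Its log2 fold change was -0.17 (edgeR adjusted p = 0.0879), with 5 of 6 HF-named libraries below all con-named ones and HF-5 the exception.

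The other membrane subunits of ATP synthase had log2 fold changes of -0.20 for Atp5mpl, a small proteolipid, -0.17 for Atp5j2 (subunit f), -0.16 for Atp5l (subunit g) and -0.11 for Atp5k (subunit e). None of these 4 passed, the nearest being Atp5j2 at an edgeR adjusted p of 0.0541 and Atp5mpl at 0.0553. In the catalytic head, Atp5a1 and Atp5b encode the alpha and beta subunits that form the sites of ATP synthesis. They were the most abundant complex V genes per length, Atp5a1 with 1415, 1443 and 1534 FPKM in con-named and 1333, 1393 and 1442 FPKM in HF-named libraries. Atp5b had 1308, 1360 and 1398 FPKM in con-named and 1234, 1284 and 1317 FPKM in HF-named libraries. FPKM divides by library totals, which include the mitochondrial transcripts, and on that scale HF-named medians were the lower ones. On the TMM scale the log2 fold changes were 0.04 and 0.03, and neither passed. The remaining head genes were Atp5c1 (gamma, -0.08), Atp5d (delta, -0.14) and Atp5e (epsilon, -0.13), none of which passed. Atp5s, known as factor B and not a core subunit, had a log2 fold change of 0.09, below 0 with library totals as were Atp5a1 and Atp5b. Over the 17 genes of complex V, 3 were lower, 0 higher, and the median was -0.14, and without con-2 the number lower was 9.

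**Figure D2:**
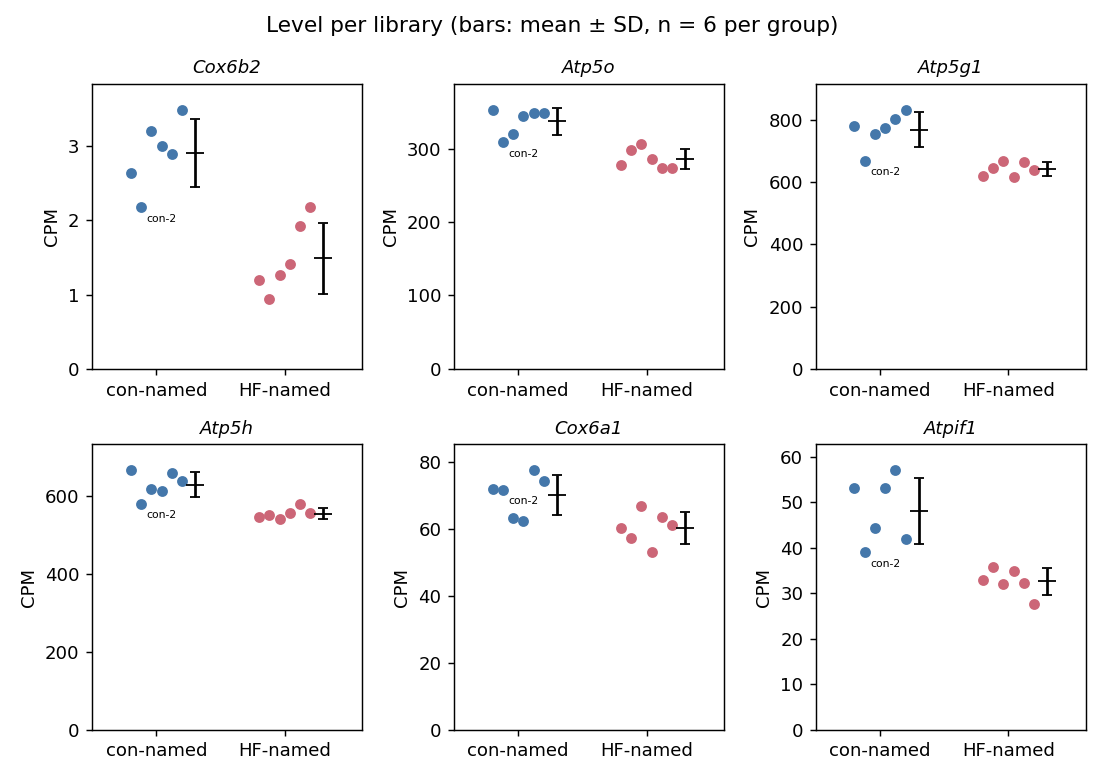
Level in each library (CPM, axes from 0) of the 5 subunit genes that passed the test and of Atpif1, the inhibitor of ATP synthase, with group mean and SD beside the points (n = 6 per group). HF-named libraries lie below con-named libraries without overlap for Atp5o, Atp5h and Atpif1, and con-2 is the lowest con-named library in every panel except Cox6a1.

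In complex IV, 2 of 17 genes were lower and 0 higher, with a median log2 fold change of -0.12. Without con-2, 5 were lower. Cox6a1 encodes the common form of subunit 6a. It measured 62.5, 71.9 and 77.6 CPM in con-named and 53.1, 60.9 and 66.9 CPM in HF-named libraries, with 4 of 6 HF-named libraries below all con-named ones. Its log2 fold change, -0.22 (SE 0.06, edgeR adjusted p = 0.0349), was the least stable of the 5: it passed in 4 of 12 fits with 1 library left out, and failed without con-1, con-2, con-5, con-6, HF-1, HF-2, HF-4 or HF-6, where the adjusted p reached 0.0813. The heart and muscle form, Cox6a2, was the most abundant complex IV gene per length, with 1284, 1472 and 1543 FPKM in con-named and 1159, 1214 and 1243 FPKM in HF-named libraries. In CPM it measured 806, 965 and 1013 against 802, 853 and 912, overlapping only through con-2, a log2 fold change of -0.15 (edgeR adjusted p = 0.108). Without con-2 it passed (edgeR adjusted p = 0.0192).

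Cox6b2, the form of subunit 6b known from testis, had the widest difference of all 44 on very few reads. Its counts were 45 to 58 in con-named and 13 to 46 in HF-named libraries. In CPM it measured 2.18, 2.95 and 3.49 in con-named and 0.942, 1.34 and 2.18 in HF-named libraries, so that con-2 and HF-6 were level and the other 5 HF-named libraries lay below. The log2 fold change was -0.92 (SE 0.19, edgeR adjusted p = 0.0060). It passed in every one of the 12 fits with a library left out. Cox6b1, the common form, was at 679 FPKM in con-named libraries against 2.72 FPKM for Cox6b2, and had a log2 fold change of -0.12 that did not pass.

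Neither gene of subunit 7a or of subunit 8 passed the test. Cox7a1, the heart and muscle form of subunit 7a, measured 340, 409 and 450 CPM in con-named and 319, 341 and 388 CPM in HF-named libraries (-0.20, edgeR adjusted p = 0.0633). Cox7a2, the common form, measured 188, 224 and 235 CPM against 179, 198 and 208 CPM (-0.18, edgeR adjusted p = 0.0522). In both genes con-2 was the lowest con-named library and lay inside the HF-named range, and without it both passed. Cox8b, the heart and muscle form of subunit 8, measured 209, 237 and 257 CPM against 187, 212 and 265 CPM, with HF-5 the highest of all 12 (-0.15). Cox8a, the common form, measured 73.9, 81.7 and 85.9 CPM against 75.2, 79.9 and 89.1 CPM (0.01, below 0 with library totals), with wide overlap.

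Subunit 4 is among the first to join the growing enzyme. Cox4i1, its common form, had 918, 965.5 and 1043 FPKM in con-named and 801, 848 and 872 FPKM in HF-named libraries, second in complex IV after Cox6a2. In CPM it measured 1313, 1461 and 1524 against 1312, 1355 and 1413, a log2 fold change of -0.09 with overlap only through con-2. Cox4i2, its lung form, measured 7.71, 8.03 and 10.6 CPM against 6.13, 7.59 and 8.45 CPM (-0.20), with con-2 the highest of all libraries. Neither passed. The remaining complex IV genes were Cox5a (-0.06), Cox5b (-0.13), Cox6c (-0.08), Cox7b (-0.10) and Cox7c (-0.06), all subunits outside the compared pairs, Cox7a2l (0.02), which encodes a factor that links complexes III and IV, and Cox6c2 (0.10), and none passed. The positive values of Cox7a2l and Cox6c2 were below 0 with library totals. Cox6c2 is a processed pseudogene in GENCODE M21 and shares 52.7% of its 50-base stretches with Cox6c, so reads of the 2 rows cannot be told apart with certainty.

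In complex III, 0 of 9 genes were lower or higher by edgeR's quasi-likelihood test, DESeq2 or limma-voom, 2 had p under 0.05 in edgeR before adjustment (Uqcrq and Uqcr11), and the median log2 fold change was -0.09. Without con-2, Uqcrq and Uqcrh were lower. Uqcrfs1, the Rieske iron-sulfur protein that takes electrons from ubiquinol, was the most abundant per length, with 515, 552 and 619 FPKM in con-named and 503, 520.5 and 543 FPKM in HF-named libraries. Its groups overlapped, and its log2 fold change on the TMM scale was 0.02, below 0 with library totals. Uqcr10, a small subunit, was second with 412, 447 and 479 FPKM against 340, 386 and 450 FPKM, and its log2 fold change was -0.08. Cyc1, the cytochrome c1 that hands electrons on, had -0.10. The core proteins of the matrix side had -0.06 for Uqcrc1 and 0.06 for Uqcrc2, the latter also below 0 with library totals. The 5 small subunits were all below 0: Uqcr11 -0.14, Uqcrq -0.14, Uqcrh (the hinge protein) -0.13, Uqcrb -0.09 and Uqcr10 as above. Cycs, the mobile cytochrome c itself, had a log2 fold change of -0.01 and overlapping groups.

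The make-up of the isoform pairs was compared as the share of each pair's summed FPKM, which does not depend on the scaling between libraries. Cox6a2 made 93.3% ± 0.75 (SD, n = 6) of subunit 6a in con-named and 93.6% ± 0.57 in HF-named libraries (exact permutation p = 0.446). Cox7a1 made 76.1% ± 0.96 and 75.8% ± 0.85 of subunit 7a (exact permutation p = 0.604). Cox8b made 81.6% ± 1.0 and 79.8% ± 1.9 of subunit 8 (exact permutation p = 0.0693, and 0.206 after Benjamini-Hochberg adjustment over the 5 shares). The share of Cox8b was lower by 1.78 percentage points. HF-5 had the highest share of all, 83.4%, while the other 5 of its group lay under the whole con-named range. Without HF-5 the share was lower by 2.49 points, with an adjusted exact permutation p of 0.0217. That p-value follows from leaving out the only HF-named library that did not lie below the con-named range, and no conclusion is drawn from it. Cox4i2 made 1.14% ± 0.22 and 1.06% ± 0.16 of subunit 4 (exact permutation p = 0.563). Atp5g1 made 20.1% ± 0.47 and 19.4% ± 0.72 of the c-ring transcripts (exact permutation p = 0.0823, adjusted 0.206). All tests were two-sided, and the smallest p possible with 6 libraries per group is 0.00216. No share passed with all libraries in.

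The 44 genes tended to be high or low in the same libraries. Library con-6 was the highest of the 12 for 19 genes and con-1 for 14, while HF-1 was the lowest for 14, con-2 for 13 and HF-4 for 11. Median deviations from the gene means on the log2 scale ran from -0.15 in HF-1 to 0.16 in con-6, and within the con-named group alone from -0.11 to 0.16, a wider span than the median difference between groups. Summed over the 44 genes, the level was 26510 to 31570 CPM in con-named and 26960 to 29490 CPM in HF-named libraries, which overlap. As a share of all counts, mitochondrial transcripts included, the sum was 3.06% ± 0.13 (SD, n = 6) in con-named libraries, from 2.87 to 3.20%, and 2.71% ± 0.06 in HF-named libraries, from 2.65 to 2.78%, without overlap. Mitochondrial transcripts took a larger share of HF-named libraries, and their part in the gap between the 2 scales was not tested.

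**Figure D3:**
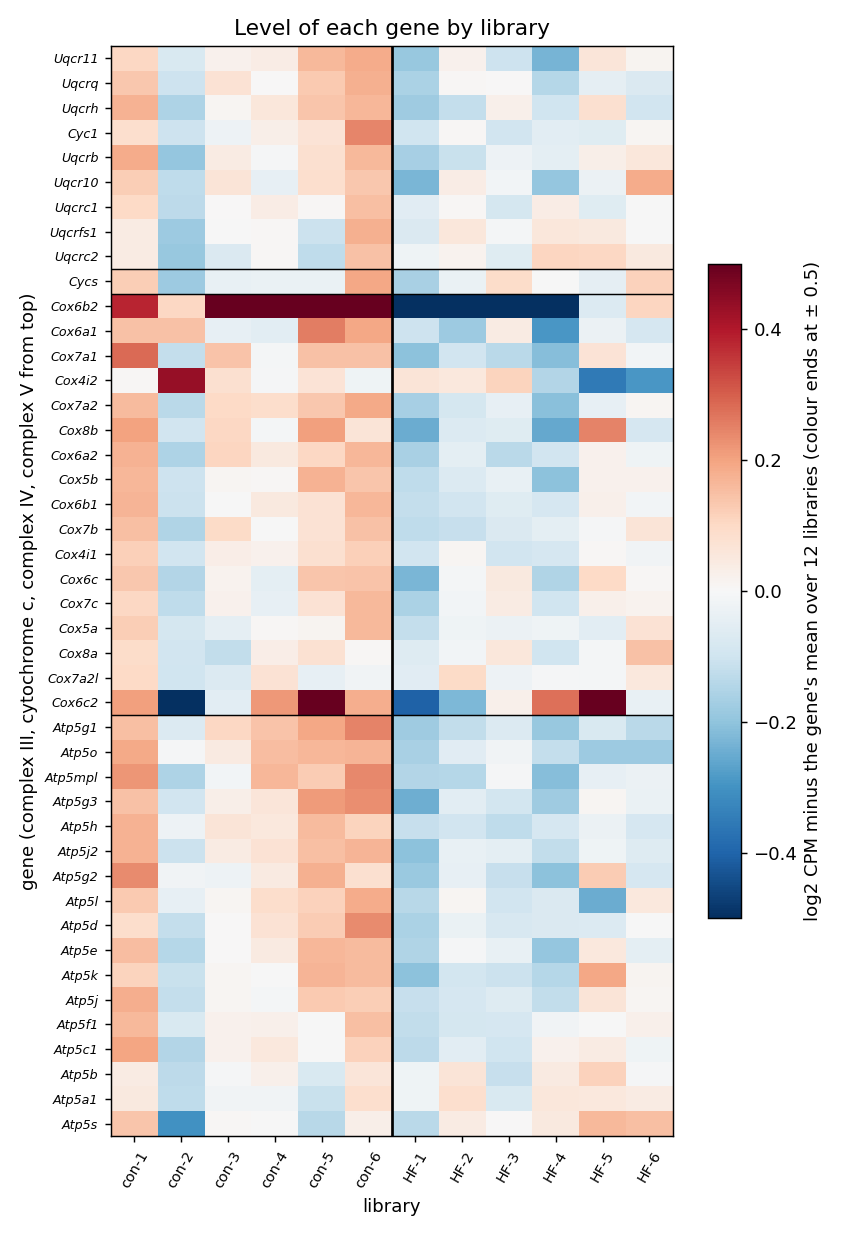
Level of each of the 44 genes (rows) in each of the 12 libraries (columns), as log2 CPM minus the gene's mean, with colours ending at ± 0.5. Columns con-1, con-5 and con-6 are red for most rows, con-2, HF-1 and HF-4 are blue, and HF-5 and HF-6 are near 0.

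Most of these genes are short, with a median length of 1569 bases where all genes tested had 4081, and fold changes moved with length across the whole table. Among all genes tested, the median log2 fold change was -0.09 for genes under 1000 bases, of which 6.04% were lower, -0.08 from 1000 to under 2000 bases (8.41% lower), -0.04 from 2000 to under 4000 bases (6.32% lower) and 0.03 from 4000 bases (3.37% lower, 12.3% higher). Among the genes described, the median was -0.14 for the 13 under 1000 bases, -0.13 for the 16 from 1000 to under 2000 bases and -0.08 for the 15 longer ones. With a smooth term for length in the fit, the median of the 44 was -0.05 against 0.00 for all genes. In that fit 3 of the 44 were lower, Cox6b2 (-0.84), Atp5g1 (-0.25) and Atp5o (-0.16), where 3.38% of all genes tested were lower. Atp5h (-0.10, adjusted p = 0.181 by edgeR's quasi-likelihood test) and Cox6a1 (-0.15, adjusted p = 0.115) did not pass in that fit. Differences in RNA integrity or fragment selection between libraries were not tested.

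**Figure D4:**
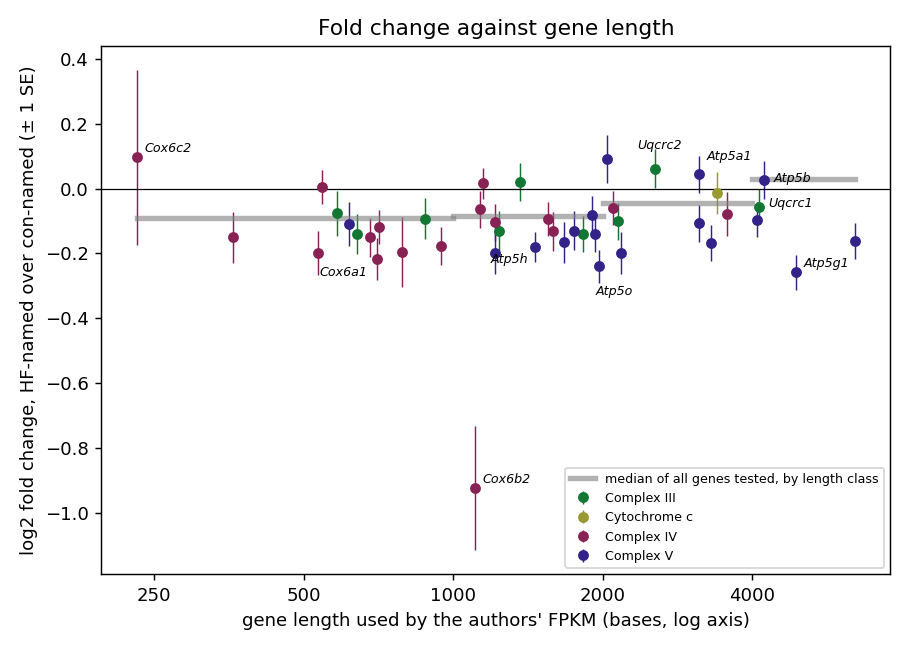
Log2 fold change (± 1 standard error) of each of the 44 genes against the gene length behind the authors' FPKM, on a log axis. Grey bars are the median of all genes tested in 4 length classes, from -0.09 in the shortest to 0.03 in the longest, and most of the 44 lie below the bar of their class.

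Several subunit genes have near-identical copies or neighbours that could take or lend reads. Of the 50-base stretches of Atp5g1, 10.2% occur in 163 other genes, 118 of which had a mean count of at least 10. Only Gm10039 among them was added in the sums below. Atp5g1 shares 6.86% of its 50-base stretches with this processed pseudogene, whose counts were 22% of those of Atp5g1. Atp5h shares 19.1% with Gm10250, whose counts were 13.4% of its own. With the copy added, the log2 ratio of group means was -0.25 for Atp5g1 and -0.18 for Atp5h, as for each gene alone to within 0.01, and 5 of 6 HF-named libraries then lay below all con-named ones for each gene. Atp5o shares 12.3% of its exon bases with the silent second Atp5o row, and on the opposite strand 18.1% with Gm15976 and 17.5% with D430001F17Rik. Counting by strand is not stated, so reads of such pairs cannot be told apart. Cox6b2 shared no 50-base stretch with another gene, and Cox6a1 shared 9.16% with a pseudogene that had 0 counts. Among genes that did not pass, overlaps on the opposite strand were largest for Uqcrc2 with Pdzd9 (19.7%), Cox5a with Gm26631 (12.8%), Atp5j with Gabpa (12.7%) and Cox6a2 with Itgad (10.3%).

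Factors that assemble or regulate the complexes, and the other lists below, were read from the same fit. In it 5.05% of all genes tested were lower and 8.28% higher. Atpif1, the inhibitor that stops ATP synthase from running backwards, was lower in HF-named libraries. It measured 38.9 to 57.0 CPM in con-named and 27.6 to 35.8 CPM in HF-named libraries, with con-2 the lowest con-named one. The groups did not overlap, and 1.95% of all genes tested lay below in this way. Its log2 fold change was -0.56 (SE 0.09, n = 6 per group, edgeR adjusted p = 0.00157), it passed in all 12 fits with a library left out, and with the length term it was -0.48. It was the only 1 of 5 measured assembly and regulatory genes of complex V to pass, Fmc1, an assembly factor, being at -0.24 (edgeR adjusted p = 0.0512).

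Of 25 measured complex IV assembly genes, 3 were higher in HF-named libraries and 0 lower, where 8.28% of all genes tested were higher. The median log2 fold change of the 25 was -0.07, and 15 of them were below 0. Coa5 was higher by 0.38 on the log2 scale (SE 0.06, edgeR adjusted p = 0.00107), with 111 to 140 CPM in con-named and 147 to 174 CPM in HF-named libraries. Lrpprc, which stabilises mitochondrial messenger RNAs, had 0.28 (edgeR adjusted p = 0.00831), and Cox15, needed to make heme a, had 0.25 (edgeR adjusted p = 0.0125) but did not pass with library totals. Coa5 did not overlap between groups, and 516 of the 15114 genes tested lay above in this way. HF-3 fell inside the con-named range for Lrpprc (183 CPM) and Cox15 (39.1 CPM). Of 6 complex III assembly genes, 0 passed by edgeR's quasi-likelihood test, while Uqcc2 and Uqcc3 had p under 0.05 before adjustment, the smaller p being that of Uqcc2 at -0.20 (edgeR adjusted p = 0.0723). Subunits whose symbols fall outside the rule, Ndufa4 (-0.13), now counted in complex IV, and Usmg5 (-0.14), of ATP synthase, did not pass.

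Of the 6 mitochondrial DNA genes for subunits of these complexes, 2 were higher in HF-named libraries and 0 lower, mt-Cytb of complex III (0.30, SE 0.08, edgeR adjusted p = 0.0205) and mt-Co1 of complex IV (0.29, SE 0.08, edgeR adjusted p = 0.0273). The call of mt-Co1 was lost without con-3, con-5, HF-2, HF-4 or HF-5, where its edgeR adjusted p reached 0.0594. Neither gene passed with no filter on low counts or with the replicate number as a block. For each nuclear-encoded complex III count there were 5.59 to 6.52 counts of mt-Cytb in con-named (median 5.89) and 7.09 to 8.49 in HF-named libraries (median 7.51). For complex IV the ratio was 11.7 to 15.0 (median 14.0) against 16.5 to 20.0 (median 17.7), and neither pair of ranges overlapped. For complex V it was 0.109 to 0.147 (median 0.122) against 0.119 to 0.195 (median 0.151), with overlap. These ratios were not tested. The letters of mt-Atp6, mt-Co2 and mt-Co3 occur almost entirely also in nuclear pseudogenes, Gm10925, Gm28661 and Gm28437, whose counts were 40.1%, 28.9% and 26.6% of theirs, so their own levels are uncertain. With such copies added, medians were 14.4 and 18.0 for complex IV and 0.171 and 0.206 for complex V. Such sums cannot recover reads that were counted in neither row, so the ratios are not compared between complexes. Most complex IV counts were of mt-Co1, with a mean of 83240 CPM in con-named libraries, against 2925 for mt-Co2 and 2380 for mt-Co3. Of the 50-base stretches of mt-Co1, 51.1% occur in another gene, 28.7% in Gm29216 and 27.5% in Gm13340. The counts of these 2 pseudogenes were 0.592% and 0.182% of those of mt-Co1. How many mt-Co1 reads were affected is not known. mt-Cytb shared no 50-base stretch with another gene.

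**Figure D5:**
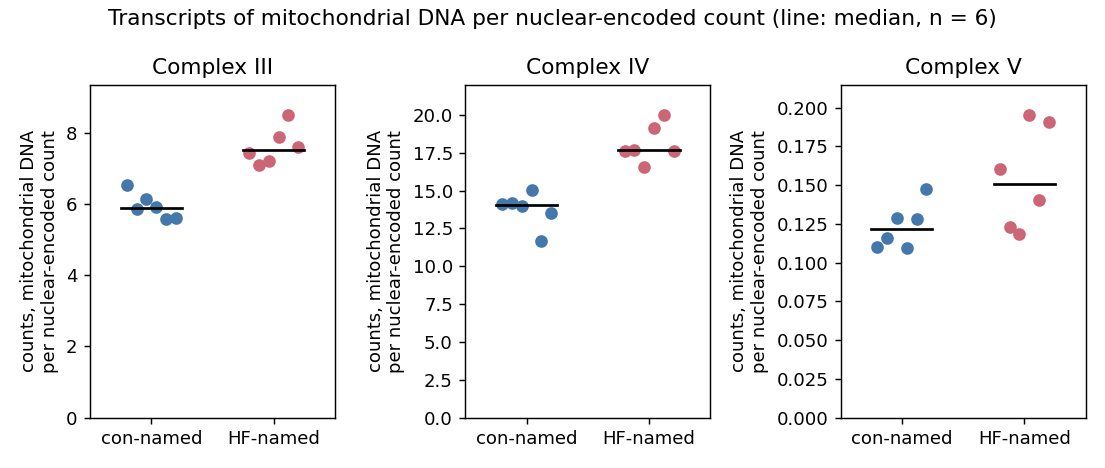
Counts of the mitochondrial DNA transcripts of complexes III, IV and V per count of their nuclear-encoded subunits, in each library (points, axes from 0) with group medians (lines, n = 6 per group). HF-named libraries lie above con-named libraries without overlap for complexes III and IV, with medians of 7.51 and 17.7 against 5.89 and 14.0, and overlap for complex V.

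Complex I, the first proton pump of the chain, was described beside them. Of its 38 measured nuclear genes, taken by symbols that begin with Nduf, 15 were lower and 1 higher in HF-named libraries. Their median log2 fold change was -0.16. The 38 count symbols and not distinct subunits, and include Ndufb4c and Ndufs6b, at 1.991 and 9.095 CPM in con-named libraries, which did not pass. Of the 15, 7 passed in all 12 fits with a library left out, and 6 passed with the replicate number as a block. With the length term 4 passed: Ndufa2, Ndufa11, Ndufb7 and Ndufs7. Among all measured complex I genes, those of smallest p were Ndufs7 (-0.27), Ndufa11 (-0.28), Ndufb7 (-0.23), Ndufa2 (-0.21), Ndufs1 (0.23, the 1 higher gene) and Ndufb9 (-0.20). Whether complex I differed from complexes III, IV and V was not tested. Of the 4 genes of complex II, 0 passed by edgeR's quasi-likelihood test and 0 had p under 0.05 before adjustment, Sdhb having the smallest p (-0.11, edgeR adjusted p = 0.189). Among 9 regulators of respiratory chain genes, 4 were higher and 0 lower: Ppara, the receptor that drives fatty acid oxidation genes (0.57, SE 0.13, edgeR adjusted p = 0.00905), the coactivator Ppargc1a (0.35, edgeR adjusted p = 0.025), the orphan receptor Esrrg (0.28, edgeR adjusted p = 0.0405) and Yy1 (0.22, edgeR adjusted p = 0.00708). Ppargc1a passed in 6 and Esrrg in 2 of the 12 fits with a library left out, and Esrrg and Yy1 did not pass with library totals. With the replicate number as a block, Ppargc1a and Esrrg did not pass, nor did Esrrg with the length term (edgeR adjusted p = 0.0555).

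Cell type markers were read beside these genes. Of 10 cardiomyocyte markers, 5 were lower, Tnnt2, Myl2, Tnni3, Ckm and Myl3, and 2 higher, Ttn and Ryr2. Their summed level was 63370 to 72040 CPM in con-named and 66130 to 73590 CPM in HF-named libraries. Fibroblast markers were lower for 4 of 8 (summed 1317 to 1627 against 1038 to 1293 CPM, without overlap). Gsn alone had means of 807.8 and 661.9 CPM in that sum. Endothelial markers were lower for 3 of 7 (1174 to 1536 against 919 to 1400 CPM) and macrophage markers for 2 of 6 (184 to 260 against 159 to 215 CPM). In these 3 lists 0 were higher. Of 6 mural cell markers 0 were lower and 0 higher (1176 to 1336 against 1359 to 1538 CPM, without overlap). Rgs5 alone had means of 625.5 and 717.7 CPM in that sum (edgeR adjusted p = 0.0504), and 2 of the 6 were below 0. How often sums of other genes fail to overlap was not examined. Of the adipocyte markers 1 of 5 was measured and higher, Cidea, while Ucp1, Adipoq, Plin1 and Lep had at most 4 counts in a library. Of the atrial markers 2 of 4 were measured and 0 passed, and Myl7 and Sln had at most 27 and 16 counts. T and B cell markers summed to 4.92 CPM or less, and of 5 erythroid markers 1 was higher. The part of these cells in the differences of the subunit genes was not tested.

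In the authors' deposited table, which holds their own test, 7 of the 44 genes had an adjusted p under 0.05, all lower in HF-named libraries. These were the 5 named above with Atp5g3 (log2 fold change -0.19, adjusted p = 0.0342 in the authors' deposited table) and Atp5j2 (-0.17, adjusted p = 0.0391 there). Over all genes with an adjusted p in the authors' deposited table, 570 of 33183 were lower and 1125 higher. Its log2 fold changes for the 44 genes differed from the ones given here by at most 0.0034.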

How the data were processed

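Read counts per gene in 12 libraries were taken as the authors deposited them, not normalized. The submitters' processing notes name mm10, HTSeq 0.9.1, HISAT2 2.0.5 and cutadapt 1.15. They do not tie a tool to a step, and the annotation release and strand setting of the counting are not stated. The FPKM values deposited by the authors gave levels per length and each gene's length. The authors' deposited comparison holds mean scaled counts (a signal), log2 fold changes and p-values, which are printed only where it is named.

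Genes kept by filterByExpr (15114 of 54949 features) entered the quasi-likelihood test of edgeR 4.0.16 (with R 4.3.3 and limma 3.58.1) after TMM scaling. It was two-sided, with group as its sole term, a Benjamini-Hochberg adjustment over all genes tested and a threshold of 0.05. Each standard error is the absolute log2 fold change over the square root of F. The steps were tested on simulated data. Columns were matched to samples, and groups set, by library name, never by values. No pair of libraries of a group agreed within sampling noise (chi-square per degree of freedom 4.28 to 16.2 over 30 pairs).

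Isoform shares were compared by exact permutation over the libraries. Genes, lists and tests were chosen with earlier results of these data known. Every subunit gene is named, with values by library for those that passed, the isoform pairs and the 2 most abundant per length of each complex, and from each other list the genes that passed, at most 6. Alternatives were other scalings and filters, DESeq2 1.42.0, limma-voom, a replicate block, a spline in gene length (5 degrees of freedom), leaving out mitochondrial transcripts and leaving out each library. Coordinates, overlaps and 50-base stretches shared between genes came from GENCODE M21 and promoters from RefSeq (GRCm38.p6). Protein sequences were not used here.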

Additional observations from a re-analysis of the deposited data

Results flagged for a closer look

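Within each group of 6, the highest and lowest library was compared with its nearest neighbour for 54 quantities, the 44 genes with shares and sums, which makes 108 group tests, and a gap above 0.625 of the group's range was marked (Dixon's 95% value). Chance marks about 1 in 20 such groups, and 4 were marked, 3 of them through con-2. Cox4i2, the lung form of subunit 4, was at 10.59 CPM in con-2, where the next con-named library had 8.27 CPM, and its share of subunit 4 was 1.563% there against 1.12% in the next. Cox7a2, the common form of subunit 7a, was at 187.8 CPM in con-2 against 219 CPM in the next lowest. Cox8b, the heart and muscle form of subunit 8, was at 265.0 CPM in HF-5 against 214 CPM in the next highest. The cause of these gaps was not tested.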

How the results depend on the processing

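In every setting run, 0 of the 44 genes were higher. The number lower was 5 in the main setting, where 5.05% of all genes tested were lower, and 33 with library totals (17.1% of all genes). With a filter of 1 CPM in 6 libraries it was 10 (6.45% of all genes), with DESeq2 11 (6.09%) and without mitochondrial transcripts 9 (5.4%). A smooth term for gene length left 3 (3.38% of all genes). When 1 library was left out it was 4 to 16 (3.3 to 6.35% of all genes), with 16 without con-2 (5.26%) and 9 without HF-5 (3.6%). For complex III with cytochrome c (0) it was 6 with library totals and 0 to 2 with a library left out. For complex IV (2) it was 13 with library totals, 4 with the CPM filter, 4 with DESeq2, 1 with the length term and 1 to 5 with a library left out. For complex V (3) it was 14, 6 and 7 in the first 3 of these settings, 6 without mitochondrial transcripts and 3 to 9 with a library left out. The median log2 fold change was -0.23 with library totals. The share of Cox8b differed by -2.49 (without HF-5) to -1.45 percentage points with a library left out. With the replicate number as a block (replicate block), 3 of the 44 were lower and 1 in complex IV, where 2.53% of all genes were lower. Same-numbered libraries did not deviate together (correlations -0.161 to 0.09, 2 of 6 best with their own number). The labels do not say what the numbers mean, and such correlations cannot decide whether they mark a pairing. Of 968 gene values under alternatives, 888 kept their side of the threshold, and 13 lost and 67 gained a call. A sign change occurred in 29 values of 11 genes, 8 of them with library totals, and 0 of the 29 were called. The cause was not tested. Atp5o, Atp5g1 and Cox6b2 passed in every setting. Cox6b2 rests on 13 to 58 counts per library, which limits its precision.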

Other observations

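Among the 7 pseudogene rows left out by symbol, 3 had enough counts to be tested and 0 passed by edgeR's quasi-likelihood test: Atp5k-ps2 with 70 to 154 counts (log2 fold change -0.19, adjusted p = 0.376), Atp5l-ps1 (-0.07) and Atp5l2-ps (-0.05). The processed pseudogenes that share stretches with subunit genes had log2 ratios of group means near those of their parents for Atp5g1 (copy -0.21, gene -0.26), Atp5h (-0.17 and -0.18) and Atp5o (copies -0.28, gene -0.24). Those of Cox7c were at -0.27 where the gene was at -0.06. These ratios were not tested.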
